A study of Mus musculus with 14 samples.

Results

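The 6 contactins (Cntn1 to Cntn6) and the 4 L1 family adhesion molecules (L1cam, Chl1, Nrcam and Nfasc) were followed in RNA sequencing profiles of mouse granule neuron progenitors (GNPs). The 10 genes are the members of the 2 families, taken with earlier results of these data known, and they are 10 of the 41381 genes in the table. GNPs divide in the outermost layer of the young cerebellum and produce its granule neurons, and here they were isolated fresh at postnatal day 7 (P7). The study deleted the chromatin remodeller Chd7 in these cells and sequenced 14 libraries of total RNA, 5 labelled WT, 5 labelled Het and 4 labelled Hom.

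WT 1 to 3 carry the genotype label Chd7 wild type, Het 1 and 2 are given as Chd7 het mutant, and Hom 1 and 2 as Chd7 hom mutant, all with the strain spelled C56Bl6/J. WT 4 and 5 are labelled Atoh1-Cre negative, Het 3 to 5 Atoh1-Cre::Chd7 f/+ and Hom 3 and 4 Atoh1-Cre::Chd7 f/f, with the strain C57BL/6. Atoh1-Cre is active in the granule cell lineage, and the study names lower recombination by this line as the probable reason for Chd7 protein that remained in the posterior cerebellum. GNPs were purified on a percoll gradient from pups of undetermined sex. Nothing in the labels says that the libraries of a group came from separate animals, so p-values measure only the spread between these samples, which may be technical. Sequencing was done in 2 batches. The libraries labelled C56Bl6/J, with Het 3, formed batch 1 (8 libraries), and the remaining 6 formed batch 2.

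Contactins are immunoglobulin-domain proteins held to the cell surface by a lipid (GPI) anchor. L1 family proteins share the immunoglobulin and fibronectin domains but span the membrane, and their cytoplasmic tail binds ankyrin, which ties them to the spectrin skeleton. Members of both families bind each other on the same and on neighbouring cells, and in the cerebellum they are known for guiding the growth, bundling and synapse formation of granule cell axons, the parallel fibres.

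Gene position is given on GRCm38 (mm10) from the GENCODE annotation. Cntn1 is on chromosome 15 (92051165 to 92341967, plus strand) and Nrcam on chromosome 12 (44328885 to 44601964, plus strand). L1cam is on chromosome X (73853778 to 73896105, minus strand) and Cntn5 on chromosome 9 (9660891 to 10904775, minus strand). Cntn2 (132509427 to 132543256, minus strand) and Nfasc (132564690 to 132741797, minus strand) are neighbours on chromosome 1, only 21.4 kb apart. The other 4 members share a stretch of chromosome 6, described further on. Most of these genes are long. Cntn5 spans 1244 kb, Cntn4 1022 kb, Cntn3 410.4 kb, Cntn6 370.6 kb, Cntn1 290.8 kb and Nrcam 273.1 kb, against a median of 18.8 kb for the genes tested. L1cam (42.3 kb) and Cntn2 (33.8 kb) are the short members.

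The 250 bases before the start sites that RefSeq gives (GRCm38.p6) are shown for Nrcam, which fell in the libraries labelled Hom, and for Cntn3 and Cntn5, the least abundant members. Each runs 5′ to 3′ on the strand of its gene, with CG dinucleotides in capitals. They lie at chr12:44328635-44328884 (plus strand), chr6:102464668-102464917 (minus strand) and chr9:10904776-10905025 (minus strand).
Nrcam: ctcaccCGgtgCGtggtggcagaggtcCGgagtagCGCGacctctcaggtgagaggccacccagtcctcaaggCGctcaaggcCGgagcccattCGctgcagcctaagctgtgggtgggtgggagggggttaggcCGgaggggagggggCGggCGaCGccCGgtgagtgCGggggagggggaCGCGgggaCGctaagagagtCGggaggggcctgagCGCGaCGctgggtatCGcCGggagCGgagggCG
Cntn3: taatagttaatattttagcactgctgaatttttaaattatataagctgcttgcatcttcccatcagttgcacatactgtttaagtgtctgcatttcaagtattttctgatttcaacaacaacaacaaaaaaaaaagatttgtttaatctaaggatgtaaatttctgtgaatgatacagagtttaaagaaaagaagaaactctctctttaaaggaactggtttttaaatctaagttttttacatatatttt
Cntn5: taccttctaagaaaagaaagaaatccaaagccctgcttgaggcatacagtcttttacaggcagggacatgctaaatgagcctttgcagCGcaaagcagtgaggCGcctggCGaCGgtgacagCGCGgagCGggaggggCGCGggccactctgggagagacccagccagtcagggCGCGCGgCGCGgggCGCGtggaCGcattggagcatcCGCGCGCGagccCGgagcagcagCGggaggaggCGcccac
The Nrcam sequence holds 25 CG dinucleotides, more than 89.3% of the 32807 mouse promoters of the same length, whose median is 6. The Cntn3 sequence holds 0, and that of Cntn5 holds 24 although its transcript was close to 0 TPM throughout. The Cntn3 window lies inside the gene as GENCODE places it, which starts at 102573101 on the minus strand. Those of Nrcam and Cntn5 end just before the GENCODE gene start, so these counts are not from like positions. Only letters of 2 motifs were searched, on both strands, namely TTGGC, the half-site of the nuclear factor I (NFI) proteins, and CAGATG, an E-box of the kind that Atoh1 and Neurod1 bind. TTGGC is present in 41.5% and CAGATG in 14.5% of all promoters, and the letters of these motifs do not overlap. The windows of the other members were searched too. Neither motif was found for Nrcam, Chl1, Cntn1, Cntn3, Cntn4, Cntn5 or Cntn6. The Cntn2 window held 2 matches to TTGGC, 1 of the Nfasc windows held 1 match to TTGGC, and the L1cam windows held 1 match to CAGATG.

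The values are TPM, the transcript abundance as the authors deposited it. TPM is scaled by transcript length and to a common total, so genes may be compared within a library, but each value is a share of a fixed total. It keeps no record of read depth. The study states only an approximate read number common to all samples, so the exact depth of each library is unknown. Changes are differences in log2(TPM + 1) from a limma model with genotype and batch as terms, fitted on the 17325 genes with at least 1 TPM in at least 4 libraries. Adding 1 shrinks the change of scarce transcripts. A gene was called when its two-sided p, adjusted by the Benjamini-Hochberg method over all genes tested, was under 0.05. In bulk samples, fewer cells of a type and less RNA per cell cannot be told apart.

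The targeted gene was examined first. Chd7 TPM was 120.81, 151.68, 132.41, 203.25 and 272.06 in WT 1 to 5, compared with 165.77, 181.3, 150.35, 149.36 and 136.77 for the 5 Het libraries and 172.49, 185.39, 149.87 and 125.63 for the 4 Hom libraries. In batch 1 every Het and Hom value but that of Het 3 lay above all WT values, against the labels, and in batch 2 all lay below. The pooled Hom change was -0.11 (SE 0.20, limma adjusted p = 0.862). Total Chd7 TPM covers exons outside the deleted part too, so it cannot settle the genotype, and directions below rest on the labels. Markers of granule neuron progenitors were abundant in every library, with a summed TPM over 10 genes (Atoh1, Barhl1 and others) of 1765 to 2209. WT 1 to 3 and Het 3 stood apart from the other 10 libraries in endothelial, Purkinje cell and astroglial markers. In the sums of oligodendroglial, inhibitory interneuron, microglial, red blood cell and meningeal markers they overlapped with the other 10. No listed marker of other cells was at 0 in all libraries. The sum over 7 endothelial markers was 21.1 to 37.7 TPM in these 4 libraries and 118 to 483 in the rest, that of 9 Purkinje cell markers 100 to 209 against 40.9 to 66.2, and that of 10 astroglial markers 1210 to 1917 against 376 to 921. Results are therefore also given without these 4 libraries, an alternative chosen after the data were seen. The only WT libraries left are then WT 4 and 5, both in batch 2. This alternative is therefore close to batch 2 fitted alone and is not a separate check.

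The members differed widely in abundance in the libraries labelled WT (n = 5, mean ± SD). Cntn2, also known as TAG-1 and found on the axons of young granule neurons, led with 513 ± 44.5 TPM and was above 98.6% of the genes tested. L1cam, the founding member of its family and a receptor for axon growth, followed at 177 ± 14.1 TPM. Nfasc, which organises nodes of Ranvier and the axon initial segment, had 104 ± 22.4 TPM. Nrcam, a partner of contactins in axon growth, had 82.9 ± 5.09 TPM, and the ranges of Nfasc and Nrcam overlapped. Nfasc was nonetheless above Nrcam within each of the 5 WT libraries. Cntn1, the partner of Caspr at paranodes, had 52.6 ± 8.93 TPM.

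The other members were scarcer. Chl1, the close homologue of L1, had 12.8 ± 2.95 TPM and Cntn6, also known as NB-3, 5.57 ± 0.607 TPM. Cntn4 (1.13 ± 0.181 TPM), Cntn3 (0.546 ± 0.109 TPM) and Cntn5 (0.142 ± 0.143 TPM) were near the limit of the table. Apart from Nfasc and Nrcam, no neighbours in this order had overlapping WT ranges. Cntn2 made up 89.5% ± 1.01 of the summed contactin TPM of a WT library, and L1cam 47.1% ± 2.48 of that of the L1 family. The summed contactin TPM was 573 ± 51.3 in WT, 602 ± 12.4 in Het and 560.5 ± 94.9 in Hom (n = 4). The summed L1 family TPM was 377 ± 37.9, 385 ± 48.1 and 362.5 ± 57.5. The group ranges of both sums overlapped.

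**Figure D1:**
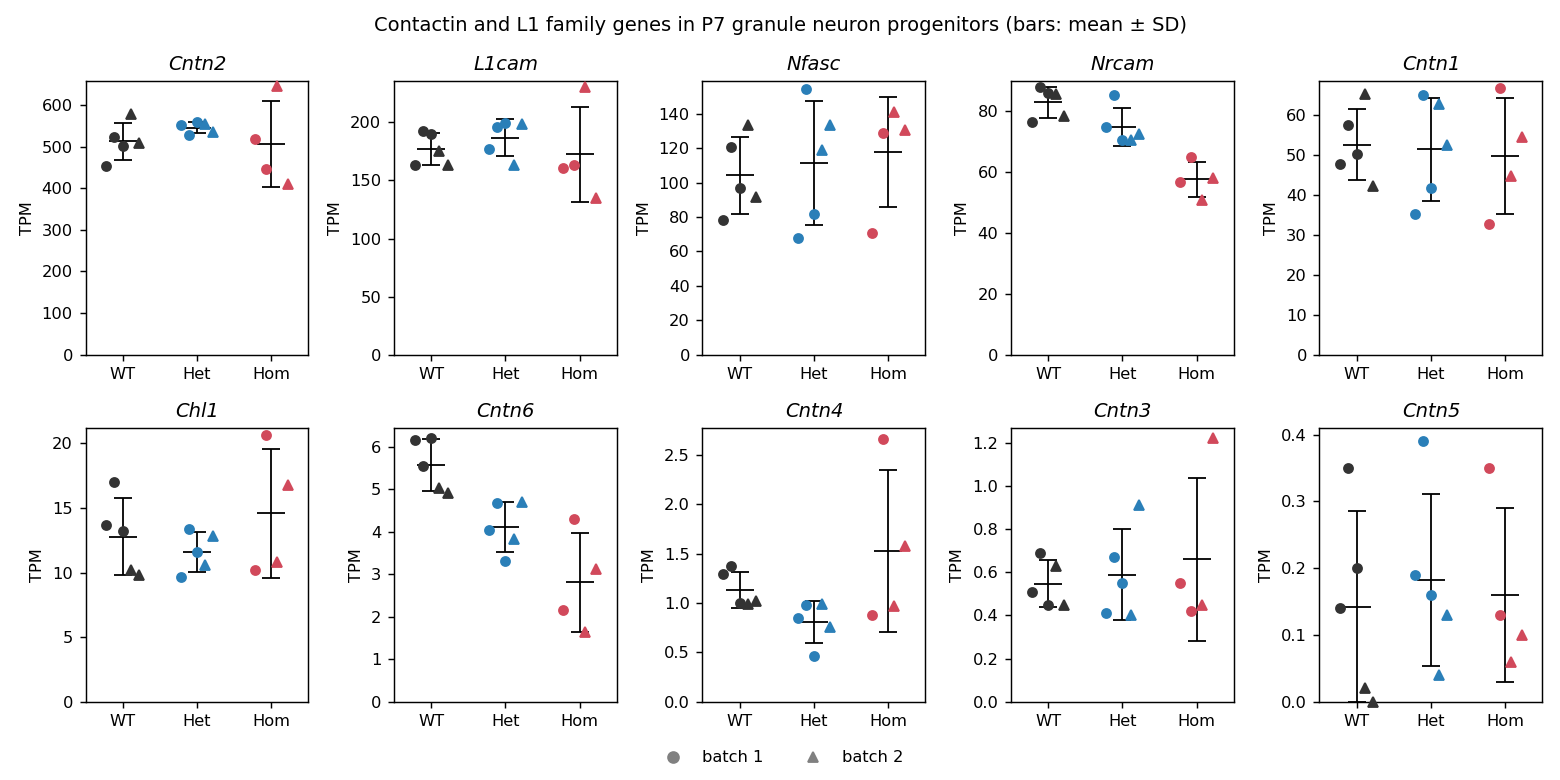
TPM of the 10 genes in each library labelled WT, Het or Hom, with circles for batch 1, triangles for batch 2 and black bars for the mean ± SD. The panels run from Cntn2, at 411 to 645 TPM, to Cntn5, at 0 to 0.39 TPM, and the Hom points of Nrcam and Cntn6 lie below all WT points.

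Whether loss of Chd7 changed the transcripts of these adhesion molecules was addressed by comparing the libraries labelled Hom with those labelled WT. Nrcam and Cntn6 fell, and none of the other 6 members tested was called in either direction. Among the 10 members 8 passed the filter on low values. Of these, 2 were called lower, beside 1.41% of all genes tested, and 0 were called higher, beside 1.27%. At an unadjusted limma p under 0.05 the count was again 2 lower, beside 6.42% of all genes, and 0 higher, beside 8.51%. The changes of the 8 were below 0 for 5 and above 0 for 3, with a median of -0.052 on the log2 scale beside 0.024 over all genes tested. Nrcam and Cntn6 were also the members whose Hom values all lay below all WT values, which 1.96% of the genes tested showed.

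Nrcam (ENSMUSG00000020598) had 76.43, 87.9, 85.92, 85.66 and 78.43 TPM in WT 1 to 5. The Het libraries had 74.7, 85.37, 70.44, 70.44 and 72.55 TPM, and the Hom libraries 56.59, 64.79, 50.81 and 57.84 TPM. Every Hom value lay below every WT and every Het value, in the pooled data and in each batch, while Het and WT overlapped through Het 2. The mean fell by 30.6%, from 82.9 ± 5.09 TPM (SD, n = 5) to 57.5 ± 5.74 TPM (SD, n = 4). On the log2 scale the change was -0.51 (SE 0.074, limma adjusted p = 0.00185; 95% interval -0.67 to -0.35). It was -0.45 (SE 0.10) within batch 1 and -0.59 (SE 0.11) within batch 2, a difference between batches of -0.13 (SE 0.15, limma adjusted p = 0.686). The Hom change differed between batches for 0 members, beside 0.0115% of all genes tested. Without WT 1 to 3 and Het 3, which leaves no WT library in batch 1, the change was -0.59 (limma adjusted p = 0.0343). Over 29 alternatives it ranged from -0.59 to -0.45 and was called in 27, the exceptions being each batch fitted alone.

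Cntn6 (ENSMUSG00000030092), a contactin reported at parallel fibre synapses and as a ligand of Notch, had 6.16, 5.54, 6.21, 5.04 and 4.91 TPM in WT 1 to 5. Het 1 to 5 had 4.05, 4.67, 3.31, 3.82 and 4.69 TPM, and Hom 1 to 4 had 2.17, 4.29, 1.65 and 3.13 TPM. All Het and all Hom values were below all WT values, and Hom and Het overlapped because Hom 2 was high. The mean fell by 49.6%, from 5.57 ± 0.607 TPM (SD, n = 5) to 2.81 ± 1.16 TPM (SD, n = 4). The log2 change was -0.82 (SE 0.18, limma adjusted p = 0.0274; 95% interval -1.21 to -0.43). Within batch 1 it was -0.77 (SE 0.25) and within batch 2 -0.85 (SE 0.27), with a difference of -0.087 (SE 0.37, limma adjusted p = 0.926).

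The direction for Cntn6 was the same under all 28 alternatives, from -1.03 to -0.68, but the call was not. The limma adjusted p ranged from 0.00513 to 0.252 and was under 0.05 in 15 of them. It was 0.0528 when genes at lower TPM entered the test, 0.194 without WT 1 to 3 and Het 3, 0.108 without Hom 1 and 0.0687 without Hom 3. Leaving out any single WT library gave 0.0523 to 0.0702.

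A rank test over the 3 genotypes gave the same 2 genes at the threshold of 0.01. After the batch term was removed, the exact Kruskal-Wallis p over 252252 arrangements of the libraries was 2.85e-04 for Cntn6 and 3.65e-04 for Nrcam. It was 0.0477 for Cntn4 and 0.272 or more for the other 5 members. This p was not adjusted over genes and takes no account of the batch term removed first. An exact p under 0.01 with Hom lower than WT was found for 2.22% of the genes tested.

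The other 6 members tested were not called in Hom against WT, with limma adjusted p-values from 0.707 to 0.897. For the abundant Cntn2, the change was -0.045 (SE 0.11, 95% interval -0.27 to 0.18). Its Hom values of 519.18, 447.07, 645.2 and 410.94 TPM spread on both sides of the WT values of 453.81, 522.18, 500.71, 577.58 and 509.07 TPM. The Het values, at 551.58, 526.8, 558.58, 554.9 and 534.65 TPM, were the tightest of the 3 groups. L1cam changed by -0.058 (SE 0.13, 95% interval -0.33 to 0.21). Its Hom libraries had 160.54, 163.7, 230.7 and 135.1 TPM, and Hom 3 was high for L1cam as it was for Cntn2, while Hom 4 was the lowest library for both. L1cam shares 100 exonic bases on the same strand with Arhgap4, which had at most 6.02 TPM, and reads there could be counted for either gene.

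Nfasc varied more within the genotypes than between their means, which were 104 ± 22.4 TPM in WT (SD, n = 5), 111 ± 36.0 TPM in Het (SD, n = 5) and 118 ± 32.0 TPM in Hom (SD, n = 4). It had 78.14, 120.86, 97.04, 133.29 and 91.85 TPM in WT 1 to 5, then 67.72, 154.8, 82.03, 118.76 and 133.49 TPM in Het 1 to 5, and 70.56, 129.08, 140.96 and 130.82 TPM in Hom 1 to 4. Hom 1 and Het 1 were the lowest libraries and Het 2 the highest, and all 3 groups overlapped. The Hom change was 0.12 (SE 0.23, 95% interval -0.39 to 0.62). Cntn1 had 47.78, 57.57, 50.2, 65.24 and 42.34 TPM in WT 1 to 5, then 35.14, 64.99, 41.63, 62.73 and 52.61 TPM in Het 1 to 5, and 32.63, 66.85, 44.74 and 54.61 TPM in Hom 1 to 4. The same Hom 1 and Het 1 were lowest for Cntn1, and the groups overlapped. Its Hom change was -0.13 (SE 0.21, 95% interval -0.59 to 0.33).

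Chl1 and Cntn4 had wide Hom groups. Chl1 was at 10.17, 20.63, 10.85 and 16.75 TPM in Hom 1 to 4, against 9.79 to 17.02 TPM (median 13.2) in WT and 9.66 to 13.37 TPM (median 11.6) in Het. Cntn4 was at 0.88, 2.66, 0.97 and 1.58 TPM in Hom, against 0.99 to 1.37 TPM (median 1.02) in WT and 0.46 to 0.99 TPM (median 0.85) in Het. Hom 2 and Hom 4 were the high libraries for both genes, and the Hom and WT groups overlapped. The Hom changes were 0.17 (SE 0.20, 95% interval -0.26 to 0.59) for Chl1 and 0.20 (SE 0.20, 95% interval -0.23 to 0.63) for Cntn4. For Chl1 the change was -0.0024 (SE 0.26) within batch 1 and 0.40 (SE 0.29) within batch 2. That difference between batches was not called (limma adjusted p = 0.628). For Cntn4 the change was 0.24 (SE 0.29) within batch 1 and 0.17 (SE 0.31) within batch 2. Cntn4 reached 1 TPM in 6 libraries only.

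Cntn3 and Cntn5 did not pass the filter and were not tested. Cntn3 reached 1 TPM in 1 library, Hom 4, at 1.22 TPM, and was between 0.4 and 0.91 TPM in the other 13. Cntn5 ranged from 0 (WT 5) to 0.39 TPM (Het 2) and reached 1 TPM in 0 libraries. An antisense transcript, Gm32710, shares 290 exonic bases with Cntn5 and was not analysed here.

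**Figure D2:**
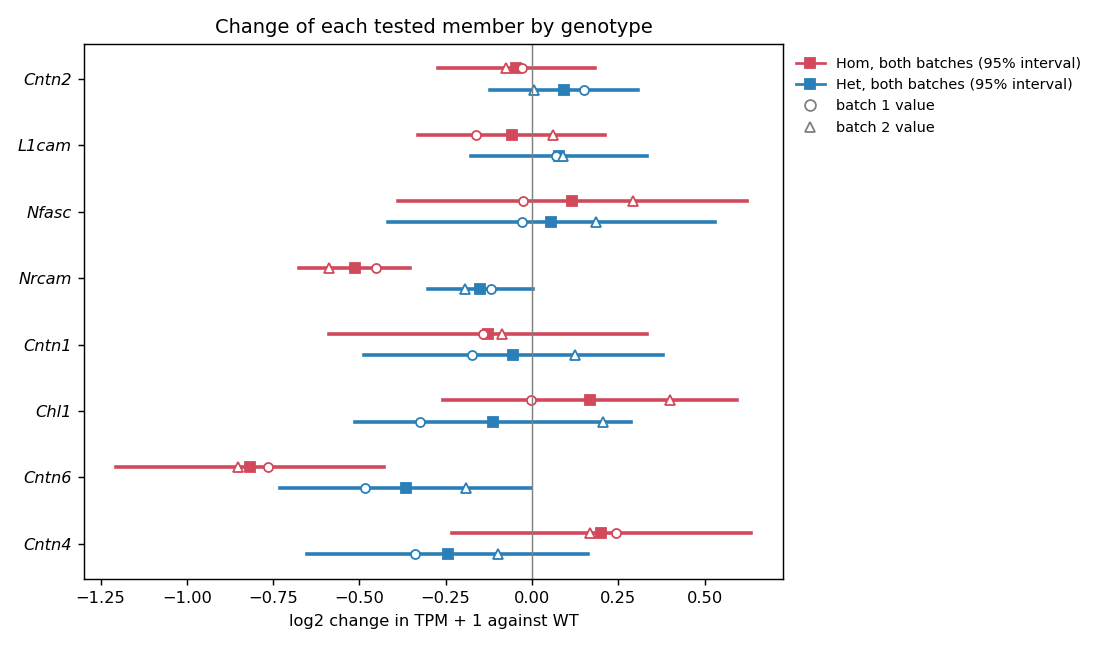
Difference in log2(TPM + 1) from the libraries labelled WT for the 8 members tested, with squares for both batches together, bars for the 95% interval, and open circles and triangles for batches 1 and 2. Only the Hom squares of Nrcam (-0.51) and Cntn6 (-0.82) were called.

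Whether the loss of 1 copy of Chd7 was enough was addressed by comparing the libraries labelled Het with the same WT libraries. None of the 8 members tested was called by limma, beside 0.0% of all genes called lower and 0.00577% called higher. At an unadjusted p under 0.05 there was 1 member. This was Cntn6, with a Het mean of 4.11 ± 0.587 TPM (SD, n = 5). Its change was -0.37 (SE 0.17, unadjusted limma p 0.0490). Its limma adjusted p was 0.814, and 2.88% of all genes tested were lower at an unadjusted p under 0.05. All 5 Het values of Cntn6 were below all 5 WT values, which 0.583% of the genes tested showed. Nrcam had a mean of 74.7 ± 6.22 TPM (SD, n = 5) in Het. Its change was -0.15 (SE 0.070, limma adjusted p = 0.815; 95% interval -0.30 to 0.0015). The changes of the other 6 ran from -0.24 (Cntn4) to 0.093 (Cntn2).

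The Hom and Het libraries were also compared directly. By limma 0 members were called, beside 0.277% of all genes lower and 0.15% higher in Hom, and 3 had an unadjusted p under 0.05, which 3.13% of all genes had with Hom lower and 3.05% with Hom higher. The change of Nrcam was -0.36 (SE 0.074), and its limma adjusted p of 0.0549 just missed the threshold. Under 5 of 29 alternatives Nrcam was called. Every Hom value of Nrcam was below every Het value, as for 1.06% of the genes tested. Cntn6 changed by -0.45 (SE 0.18, limma adjusted p = 0.666) and Cntn4 by 0.44 (SE 0.20, limma adjusted p = 0.792). The batch-adjusted means ran in the order WT, Het, Hom from high to low for Cntn1, Cntn6 and Nrcam, an order that 20.3% of the genes tested showed.

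Markers of other cell types were set beside each of the 8 members across the 14 libraries, which gave 64 relations to 8 lists. Nfasc and Cntn1 tended to be high where the oligodendroglial markers were high, as a description with no test, since 1 marker was taken out of this list after the values were seen. The comparison used the summed TPM of 9 oligodendroglial markers (Sox10, Olig2, Mbp and others), which ran from 641.5 to 1082 in WT, from 524.5 to 1230 in Het and from 488 to 1158 in Hom. For Nfasc, Pearson's r was 0.924 and Spearman's rho 0.776. Within batch 1 r was 0.938 (n = 8), within batch 2 0.832 (n = 6), and without the 2 libraries farthest from the median marker sum 0.866. For Cntn1, r was 0.886 and rho 0.754. The same relation gave r of 0.979 in batch 1 (n = 8), 0.633 in batch 2 (n = 6) and 0.75 without the 2 farthest libraries. Other lists ran with these genes too. For Nfasc r was 0.594 (rho 0.736) with the endothelial, 0.645 (rho 0.657) with the inhibitory interneuron and 0.563 (rho 0.534) with the microglial markers. The interneuron value was -0.641 within batch 2. For Cntn1 r was 0.584 (rho 0.512) with the microglial markers. Over the 8 lists r ran from -0.374 to 0.924 for Nfasc and from -0.276 to 0.886 for Cntn1. Nfasc and Cntn1 are known in oligodendroglia as well as in neurons. The part of oligodendroglia or other cells in the values was not tested.

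For Nrcam and Cntn6 the oligodendroglial list gave r of 0.068 and 0.119 over the 14 libraries. The sign differed between batches, with 0.612 and 0.636 within batch 1 (n = 8) and -0.435 and -0.434 within batch 2 (n = 6). Over the 14 libraries, the highest r of both genes among the 8 lists was with the astroglial markers. It was 0.613 (rho 0.658) for Nrcam and 0.635 (rho 0.609) for Cntn6. Within batch 1 it was 0.633 and 0.652 (n = 8), and within batch 2 0.554 and 0.596 (n = 6). Neither passed the adjustment (permutation p = 0.02 and 0.0152, both adjusted to 0.234, and 0.168 and 0.202 by rho). With the Purkinje cell markers r was 0.492 for Nrcam and 0.573 for Cntn6, and these did not pass it either. Within batch 1 these were 0.49 and 0.619, and within batch 2 0.709 and 0.763. The part of Purkinje cells in the values was not tested. The astroglial sum ran from 472 to 1917 TPM in WT, from 630.3 to 1210 in Het and from 376 to 737 in Hom, and its part in the Nrcam and Cntn6 values was not tested.

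**Figure D3:**
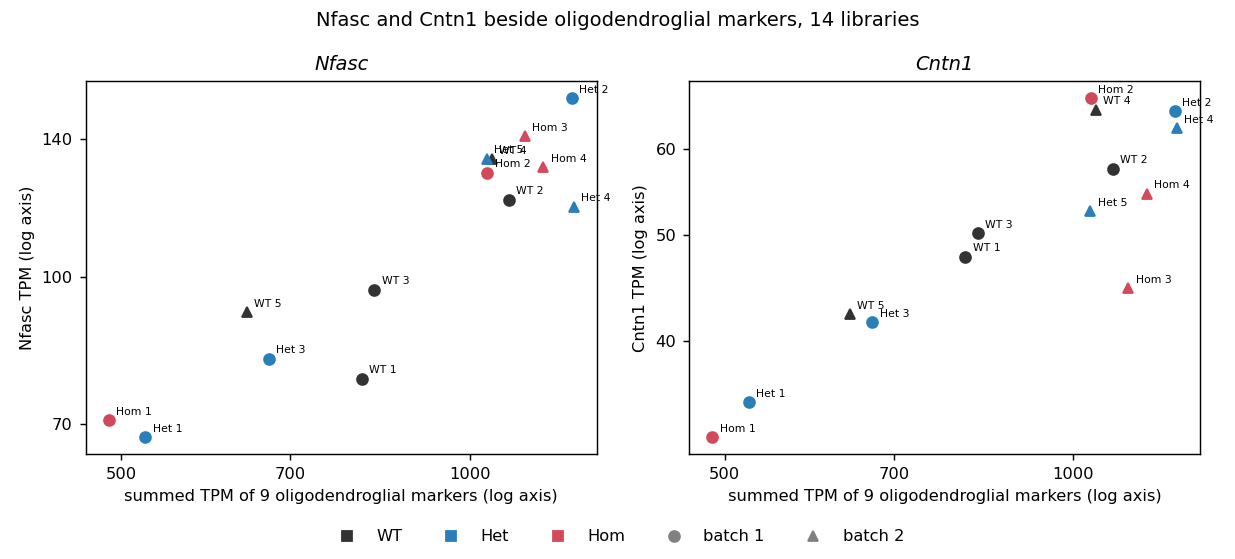
TPM of Nfasc (left) and Cntn1 (right) against the summed TPM of 9 oligodendroglial markers in 14 libraries, all axes logarithmic, coloured by genotype and shaped by batch. Hom 1 and Het 1, with the lowest marker sums (488 and 524.5), have the lowest values of both genes, and the 3 genotypes are mixed along the trend.

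Lists of granule cell markers were compared between the same groups, beside 1.41% of all genes called lower and 1.27% called higher. Among 10 markers of postmitotic granule neurons 2 were called lower in Hom, the transcription factor Neurod1 (-0.55, limma adjusted p = 0.0116) and the neuronal tubulin Tubb3 (-0.38, limma adjusted p = 0.0111), and 0 were called higher. Among 10 markers of proliferating GNPs 1 was called higher, the cyclin Ccnd1 (0.80, limma adjusted p = 1.11e-04), and 0 lower. Of 6 mature granule neuron markers tested, 2 were called lower, Kcnd2 (-1.57, limma adjusted p = 7.47e-04) and the glutamate transporter Slc17a7 (-0.71, limma adjusted p = 0.0439), and 1 higher, the glutamate receptor subunit Grin2c (1.51, limma adjusted p = 0.00465). The summed TPM of the postmitotic markers was 3803 to 5246 in WT, 3924 to 4477 in Het and 3471 to 3989 in Hom. That of the proliferating markers was 1765 to 1949, 1775 to 2209 and 1888 to 2208. For both lists Hom and WT overlapped. The 7 listed mature markers summed to 54.3 to 65.4, 44.95 to 64.6 and 32.05 to 52.2 TPM, with all Hom sums below all WT sums. This difference was carried by the 2 genes called lower, the most abundant of the list in WT. The mean of Kcnd2 went from 21.3 TPM in WT to 6.71 in Hom and that of Slc17a7 from 23.2 to 15.1. How often such sums do not overlap was not computed, and the sum does not stand for the list as a whole. The part of the balance of progenitors and young neurons in the Nrcam and Cntn6 values was not tested.

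The genes most like each called member were taken by the highest Pearson r over 14 libraries on the batch-adjusted log2 scale, among genes with a mean of at least 5 TPM. For Nrcam these were Kcnd2, a potassium channel subunit (r = 0.974), Mndal (r = 0.969) and the growth factor Vegfc (r = 0.963). Their mean TPM went from 21.3 to 6.71, from 120.5 to 53.6 and from 8.80 to 4.39 between WT and Hom. For Cntn6 they were the kinetochore gene Zwint (r = 0.947), the collagen gene Col9a1 (r = 0.933) and Alcam, itself an immunoglobulin-domain adhesion molecule (r = 0.913). Zwint went from 237 TPM in WT to 209 in Hom and was not called (-0.19, limma adjusted p = 0.0661), Col9a1 went from 7.47 to 3.70 TPM and Alcam from 59.0 to 26.6 TPM. These values are a description over libraries that share genotype groups.

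Partners of the 2 families were examined next, from lists of 7 Caspr family genes, 7 ligands and receptors of contactins, 5 co-receptors, 12 cytoplasmic linkers and 3 sheddases. Of these, 3 Caspr genes and all genes of the other 4 lists passed the filter. In Hom against WT 1 gene was called higher and 0 lower by limma, and in Het against WT 0 were called in either direction. An unadjusted limma p under 0.05 was found in Hom for 2 ligands or receptors, 3 co-receptors, 3 linkers and 1 sheddase. Over all genes tested, 6.42% were lower and 8.51% higher in Hom at this threshold, and 1.41% and 1.27% were called. The single call was Ptprg, a receptor tyrosine phosphatase that binds Cntn3 to Cntn6. Ptprg had 37.37, 53.21, 41.9, 65.55 and 56.42 TPM in WT 1 to 5, then 63.41, 70.03, 54.79, 61.14 and 66 TPM in Het 1 to 5, and 70.66, 81.3, 67.1 and 83.81 TPM in Hom 1 to 4. All Hom values were above all WT values, as for 2.91% of the genes tested, and Het overlapped with both. The mean went from 50.9 ± 11.3 TPM (SD, n = 5) to 75.7 ± 8.09 TPM (SD, n = 4), a change of 0.57 (SE 0.13, limma adjusted p = 0.0357). The call held in 13 of 29 alternatives, with changes from 0.28 to 0.78, and without WT 1 to 3 and Het 3 the change was 0.28 (limma adjusted p = 0.259). It was 0.78 within batch 1 and 0.30 within batch 2.

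The remaining partners are given by their most abundant gene. Cntnap1, which encodes Caspr and pairs with Cntn1, had 38.4 TPM in WT and 51.2 in Hom, a change of 0.43 (SE 0.28, limma adjusted p = 0.514). Itgb1, an integrin subunit, changed by 0.10 (SE 0.11, limma adjusted p = 0.721). Sptan1, the alpha spectrin of the submembrane skeleton, changed by -0.057 (SE 0.096, limma adjusted p = 0.849). Adam10, a protease that sheds L1 family ectodomains, changed by 0.24 (SE 0.099, limma adjusted p = 0.272). The median Hom change was -0.087 for the Caspr genes tested, -0.077 for the ligands, 0.17 for the co-receptors, -0.0077 for the linkers and 0.12 for the sheddases, beside 0.024 over all genes tested. The extracellular matrix ligand Tnc and the semaphorin co-receptors Nrp1 and Nrp2 had larger changes than most, and were named after their values were seen. They changed by -0.97 (SE 0.32), 0.61 (SE 0.23) and 0.82 (SE 0.32), with limma adjusted p-values of 0.164, 0.229 and 0.238.

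**Figure D4:**
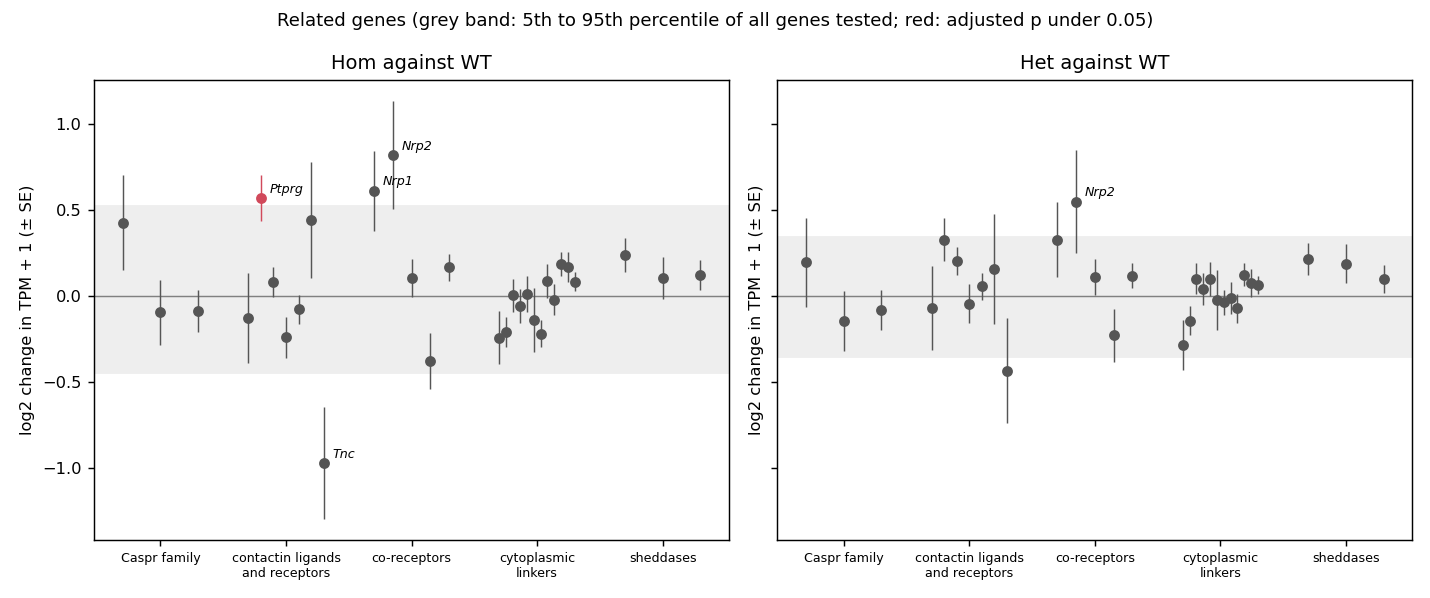
Difference in log2(TPM + 1) ± SE from the libraries labelled WT for the 30 partner genes tested, Hom left and Het right, with the 5th to 95th percentile of all genes tested in grey. Ptprg (0.57, red) was the only gene called in Hom, and genes changed by more than 0.5 are named.

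Cntn3, Chl1, Cntn6 and Cntn4 lie together on chromosome 6 within 4537 kb. Cntn3 runs from 102162655 to 102573101 on the minus strand. Chl1 (103510586 to 103750211), Cntn6 (104492790 to 104863406) and Cntn4 (105677660 to 106699310) are on the plus strand. The gaps between them are 937.5, 742.6 and 814.3 kb. The table holds 11 genes in this region, of which 5 were at 0 TPM in all libraries, and the 3 that passed the filter were Chl1, Cntn6 and Cntn4 themselves. Cntn6 was called lower in Hom, while its neighbours on either side were not called, with changes of 0.17 for Chl1 and 0.20 for Cntn4. The difference between the neighbours was not tested.

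**Figure D5:**
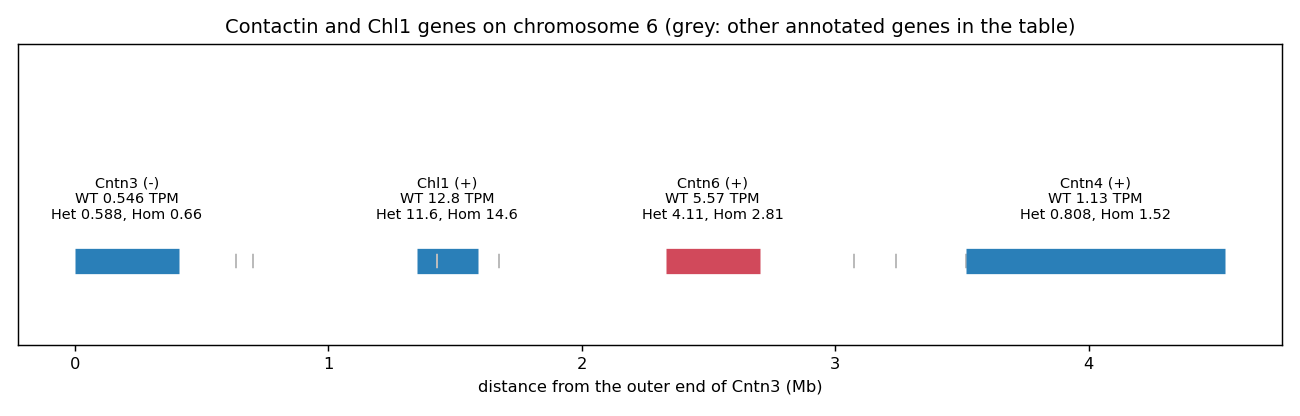
Map of the 4537 kb of chromosome 6 that hold Cntn3, Chl1, Cntn6 and Cntn4, drawn to scale in Mb from the outer end of Cntn3, with the mean TPM of each genotype above each gene and grey marks for other genes in the table. Cntn6 (red), between Chl1 and Cntn4, went from 5.57 TPM in WT to 2.81 in Hom.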

How the data were processed

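The authors deposited 1 table of gene-level TPM, estimated from single-end reads mapped to the Ensembl mm10 transcriptome with Bowtie 1.0.0 and RSEM 1.2.15 (versions from the submitters' processing notes). Columns summed to between 999999.14 and 1000000.79. Control columns were matched to WT libraries by number, and batches follow the study's methods. TPM keeps no depth, so precision rests on the replicates.

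Symbols and positions came from GENCODE (40254 of 41381 genes matched), and promoters from RefSeq, with GENCODE exons left out of printed sequence. With limma 3.58.1 (R 4.3.3), log2(TPM + 1) was modelled by lmFit and trended eBayes on genotype, batch and, in a further fit, their interaction. The code was tested on simulated data. The exact Kruskal-Wallis test used limma's removeBatchEffect, since ComBat, which the study used, was not run. Correlations used 100000 permutations in scipy 1.17.1, on log2(TPM + 1), with Benjamini-Hochberg adjustment over 64 relations.

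The members and all gene lists were chosen with earlier results of these data known. Named genes were the members, Chd7, every partner gene called or else the most abundant of its list, neighbours on chromosome 6 that passed the filter, and the 3 genes most like each called member. Granule cell markers called in Hom among the 3 lists described are named beside their counts. Marker lists of microglia, inhibitory interneurons, red blood cells and meninges were also summed and correlated. Alternatives changed the pseudocount (0.1 or 0.5), filter, scaling, batch term, libraries, trend, weights and replicate block. After the values were seen, 1 oligodendroglial marker was taken out of its list, and it is not reported here. Protein sequences were not used here.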

Additional observations from a re-analysis of the deposited data

Results flagged for a closer look

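Each member was examined for a library far from the rest of its genotype group by Dixon's test. Over 30 groups, chance flags about 1 in 20, and 3 were flagged. Cntn3 in Hom 4 was at 1.22 TPM, high above the other 3 Hom libraries, with a gap of 0.838 of the group's range. Nrcam in Het 2 was at 85.37 TPM, above the other 4 Het libraries (0.715 of the range) and within the WT range. Nfasc in Hom 1 was at 70.56 TPM, below the other 3 Hom libraries (0.831 of the range), and the same library had the lowest oligodendroglial marker sum, at 488 TPM.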

How the results depend on the processing

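The number of members called lower in Hom against WT was 2. It was 1 with genes above 0 TPM in at least 4 libraries, with a mean TPM of at least 5 (where Cntn6 was not tested), with only the 2 genotypes compared, with the replicate block, and without WT 1 to 3 and Het 3. It was 0 in batch 1 alone and in batch 2 alone, where there are fewer libraries. Leaving out 1 library gave 1 to 2, the lower count without any of WT 1 to 5, Hom 1 or Hom 3. In Hom against Het the count was 0, and 1 (Nrcam) with median-ratio scaling, a mean TPM of at least 5, quantile normalization, Het 3 in batch 2, or array weights. Under the replicate block Cntn6 changed by -0.69 (limma adjusted p = 0.137) and Nrcam by -0.49 (limma adjusted p = 0.0103). Same-numbered libraries had residual correlations of -0.235 to 0.264, and differently numbered libraries of different genotypes of -0.301 to 0.333. Between Het and Hom the 2 highest were same-numbered (0.249 for Het 2 with Hom 2 and 0.264 for Het 3 with Hom 3). The numbers were not taken as pairing, which these values cannot exclude.

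Members that were not called changed sign in places, and the cause was not tested. In Hom against WT, these were L1cam in batch 2 alone (0.061) and without WT 1 to 3 and Het 3 (0.019), Chl1 in batch 1 alone (-0.0024) and with array weights (-0.048), and Nfasc in the same (-0.025 and -0.11). In Het against WT, they were Cntn1 in batch 2 alone (0.13) and without WT 1 to 3 and Het 3 (0.080), Chl1 in the same (0.20 and 0.17), and Nfasc in batch 1 alone (-0.030) and with array weights (-0.12). In Hom against Het, they were Cntn1 in batch 1 alone (0.033) and Nfasc with the replicate block (-0.052). Leaving out 1 library gave, in Hom against WT, -0.34 to 0.058 for Cntn1, -0.16 to 0.065 for Cntn2, -0.015 to 0.36 for Cntn4, -0.22 to 0.049 for L1cam and -0.022 to 0.31 for Nfasc. In Het against WT it gave -0.17 to 0.062 for Cntn1 and -0.12 to 0.19 for Nfasc. In Hom against Het it gave -0.28 to 0.11 for Cntn1 and -0.079 to 0.26 for Nfasc. Exact depth and read counts per gene are unknown, so differences in Cntn3, Cntn4 and Cntn5, near 1 TPM or less, could not be set against counting error.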
